A study of Mus musculus with 11 samples.

Results

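Pericentral Wnt-dependent genes of hepatocytes were described on 11 expression arrays. The list holds 10 genes (Glul, Oat, Rhbg, Slc1a2, Lgr5, Axin2, Tbx3, Lect2, Sp5 and Nkd1), and a gene was followed on the array row annotated to it alone or, with several such rows, on the one whose mean across all 11 arrays was highest. By this rule 8 of the 10 genes had a row, among 30142 genes with a row of their own. The only row of Glul also carried a microRNA gene, Mir8114, and the only row of Rhbg also carried Tsacc, so neither gene could be read by itself. Of the 8 genes, 7 reached the level at which genes were tested (a highest group mean of at least 5.27 on the log2 scale), and Sp5 did not.

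The RNA came from hepatocytes of male mice aged 12 weeks. The double KO group (n = 3) lacked Nemo in liver parenchymal cells and also lacked Cxcr6, the Nemo KO group (n = 3) lacked Nemo in these cells, the Cxcr6 KO group (n = 3) lacked Cxcr6, and the wildtype group (n = 2) carried neither deletion. Nemo (Ikbkg on the array) is a regulatory part of the kinase that switches on NF-kB, and Cxcr6 is a chemokine receptor. Source names place double KO and Cxcr6 KO in a line named Nemo_CXCR6, with and without Cre, and Nemo KO and wildtype in a line named Nemo, with and without Cre, so the mouse line changes wherever Cxcr6 status changes, and those factors cannot be told apart. Which promoter drove Cre was not stated in the labels. Replicates are called biological in the labels, which do not state that each is a separate mouse, and p-values measure the spread between these samples.

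As background, hepatocytes of the liver lobule divide their tasks along the path of the blood, and those beside the central vein receive Wnt ligands and R-spondins made mainly by the endothelium of that vein. Wnt binding to Frizzled and Lrp5 or Lrp6 stops the destruction complex from degrading beta-catenin, which then acts with Tcf and Lef factors on target genes. Pericentral hepatocytes use this signal to keep enzymes and transporters of ammonia and glutamate handling, as well as receptors and feedback inhibitors of the pathway itself. Lgr5 and its homologue Lgr4 bind R-spondins, which prevent Znrf3 and Rnf43 from removing Frizzled from the cell surface.

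Tcf and Lef factors are known to bind a core of the letters CTTTGAT or CTTTGAA, and the promoter windows of the listed genes that hold these letters are shown because the genes are grouped by that signal. Windows of 300 bases (250 before to 50 after the start, RefSeq, GRCm38.p6, 5′ to 3′ on the strand of the gene) were available for 7 of the 10 listed genes: Glul, Sp5, Slc1a2, Oat, Nkd1, Axin2 and Lect2. Rhbg, Lgr5 and Tbx3 had no entry. For Slc1a2, Nkd1 and Axin2 the start used lies inside the gene, so the region before the outer end of the gene was not searched. For Lect2 the start lies inside by a small margin. On either strand 3 of the 7 windows held 1 match, while 8.65% of all 32851 windows of this length (2842) held at least 1. The match, in capitals, began 104 bases before the start in Sp5 (chr2:70474673-70474972, plus strand), 207 bases before it in Slc1a2 (chr2:102706188-102706487, plus strand, where the start RefSeq's window uses lies inside the gene and is not its outer end) and 32 bases before it in Lect2 (chr13:56548489-56548788, minus strand); in Slc1a2 and Lect2 it reads as the reverse complement, ATCAAAG. A match of letters is a description and no evidence of binding, and a window without one says only that these letters are not in it.
Sp5: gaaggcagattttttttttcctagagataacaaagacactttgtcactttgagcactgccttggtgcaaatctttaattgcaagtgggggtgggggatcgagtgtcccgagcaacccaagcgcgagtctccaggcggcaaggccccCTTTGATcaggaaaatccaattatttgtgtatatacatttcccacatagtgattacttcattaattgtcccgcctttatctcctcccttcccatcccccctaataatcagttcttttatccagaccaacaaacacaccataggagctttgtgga
Slc1a2: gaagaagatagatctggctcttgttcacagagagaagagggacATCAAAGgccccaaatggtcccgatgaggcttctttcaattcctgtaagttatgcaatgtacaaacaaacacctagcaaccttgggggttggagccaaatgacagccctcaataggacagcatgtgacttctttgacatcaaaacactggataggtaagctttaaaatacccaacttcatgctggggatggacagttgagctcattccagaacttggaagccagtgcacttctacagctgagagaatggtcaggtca
Lect2: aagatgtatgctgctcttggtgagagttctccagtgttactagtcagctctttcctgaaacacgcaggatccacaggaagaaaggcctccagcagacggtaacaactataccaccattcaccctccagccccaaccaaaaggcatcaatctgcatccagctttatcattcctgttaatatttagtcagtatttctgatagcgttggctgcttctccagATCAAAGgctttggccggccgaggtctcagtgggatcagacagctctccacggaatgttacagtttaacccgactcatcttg

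The table as a whole set the frame for these values. Values are deposited log2 signals, so a difference of 1 is a doubling of signal, and signals of different genes cannot be set against each other. The wildtype pair correlated at 0.984 over all 65956 rows, below the 0.990 to 0.995 of pairs in the other groups, and their Mki67 signals, a marker of dividing cells, were 5.35 and 11.18. Neither Ikbkg (8.76 to 9.49 over 11 arrays) nor Cxcr6 (4.94 to 5.56) separated the groups, and whether their probes lie in the deleted parts is not known. Cxcr6 lay near the tested level of 5.27 even in wildtype (5.35 and 5.47), so its row could hardly show a loss. Ly6d separated all 6 arrays of mice lacking Nemo (11.37 to 15.60) from the other 5 (4.80 to 5.58). Ly6d is not a target of either deletion, so this is a description and no direct check of genotype.

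Among enzymes and transporters, Oat encodes ornithine aminotransferase, the mitochondrial enzyme that links ornithine to glutamate and proline. Its log2 signals were 16.04, 14.82 and 15.79 in double KO, 15.61, 15.18 and 15.92 in Nemo KO, 15.81, 15.69 and 16.39 in Cxcr6 KO, and 15.28 and 15.51 in wildtype. The lowest and the second highest of the 11 values were both in double KO, and all 3 Cxcr6 KO arrays lay above both wildtype arrays. From high to low the group means ran in the order Cxcr6 KO, Nemo KO, double KO and wildtype, with ranges of neighbours overlapping throughout. The difference with the largest size was Cxcr6 KO minus wildtype, 0.57 ± 0.36 (SE, log2, limma adjusted p = 0.632), or 0.36 without Cxcr6 KO replicate 3. In RNA of whole samples, for this and the following genes, fewer pericentral cells and less RNA per cell cannot be told apart.

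Slc1a2 encodes a glutamate transporter that in liver marks the hepatocytes next to the central vein. Its log2 signals were 10.68, 11.16 and 11.02 in double KO, 11.02, 11.02 and 11.21 in Nemo KO, 11.07, 11.08 and 12.07 in Cxcr6 KO, and 9.94 and 10.74 in wildtype. Wildtype held the lowest value, the second wildtype array lay just above the lowest double KO array, and Cxcr6 KO replicate 3 stood about 1 log2 unit above the rest of its group. Nemo KO and Cxcr6 KO did not overlap with wildtype. Slc1a2 was 1.68-fold higher in Nemo KO than in wildtype (log2 difference 0.75 ± 0.33 SE, limma adjusted p = 0.201) and 2.10-fold higher in Cxcr6 KO than in wildtype (1.07 ± 0.33 SE, 95% interval 0.33 to 1.81, limma adjusted p = 0.25), and neither passed 5% after adjustment. Without wildtype replicate 1 these differences were 0.35 and 0.67, and without wildtype replicate 2 they were 1.15 and 1.47.

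Lgr5, the R-spondin receptor, had the largest single difference from wildtype among the 7 tested genes. Its log2 signals were 7.44, 7.63 and 8.64 in double KO, 7.84, 8.40 and 7.70 in Nemo KO, 7.30, 7.63 and 7.63 in Cxcr6 KO, and 6.67 and 6.91 in wildtype. All 9 arrays of the 3 knockout groups lay above both wildtype arrays, double KO overlapped with both other knockout groups, and all 3 Nemo KO arrays lay above all 3 Cxcr6 KO arrays, a pair of groups outside the comparisons. Nemo KO was 2.28-fold higher than wildtype (log2 difference 1.19 ± 0.34 SE, 95% interval 0.42 to 1.95), which missed 5% after adjustment over all genes (limma adjusted p = 0.0879). The mean of the proliferation markers lay between 6.53 and 6.90 in Nemo KO, against 5.62 and 7.89 on the wildtype arrays, and its part in this difference was not tested. Cxcr6 KO was 1.66-fold higher than wildtype in Lgr5 (0.73 ± 0.34 SE, limma adjusted p = 0.476), and double KO was 1.30-fold higher than Cxcr6 KO (0.38 ± 0.30 SE, adjusted p = 0.438). The last difference rested on double KO replicate 3, without which it was 0.01; without double KO replicate 1 it was 0.61. Of the 8 genes, Lgr5 was the only one with neighbouring groups, Cxcr6 KO and wildtype, whose ranges did not overlap in the order of group means.

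Axin2, a scaffold of the destruction complex that is itself induced by Wnt signals and limits them, varied less. Its log2 signals were 6.31, 6.30 and 7.14 in double KO, 6.70, 6.53 and 6.35 in Nemo KO, 5.94, 6.30 and 6.38 in Cxcr6 KO, and 6.14 and 6.35 in wildtype. Double KO replicate 3 was the highest array, as it was for Lgr5 and Lect2, and the ranges of the groups overlapped in all 4 comparisons. The differences were 0.38 ± 0.23 (SE, log2) for double KO minus Cxcr6 KO and 0.28 ± 0.25 for Nemo KO minus wildtype, with limma adjusted p = 0.31 and 0.536. Without double KO replicate 3 the difference of double KO and Cxcr6 KO was 0.10, without Cxcr6 KO replicate 1 it was 0.24, and without wildtype replicate 1 that of Nemo KO and wildtype was 0.18.

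Nkd1, an inhibitor that binds Dishevelled, was nearly flat. It lay less than 1 log2 unit above the tested level of 5.27 and was not tested with the stricter filter. Whether its flat values reflect steady expression or little signal above background was not tested. On the arrays it had log2 signals of 6.03, 6.06 and 6.05 in double KO, 6.03, 6.06 and 6.05 in Nemo KO, 6.01, 6.03 and 5.95 in Cxcr6 KO, and 6.03 and 5.86 in wildtype. The double KO arrays lay above the Cxcr6 KO arrays by a margin that the second decimal hardly shows, and the groups of the other 3 comparisons overlapped. Its largest difference was 0.10 ± 0.08 (SE, log2, limma adjusted p = 0.476) in Nemo KO minus wildtype, with a 95% interval of -0.08 to 0.27.

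Tbx3 and Sp5 encode transcription factors that Wnt signals induce. Tbx3, a T-box factor, had log2 signals of 7.43, 7.60 and 8.18 in double KO, 8.53, 8.49 and 7.51 in Nemo KO, 7.53, 8.37 and 8.37 in Cxcr6 KO, and 8.26 and 7.46 in wildtype. Every group held both high and low arrays, and the groups overlapped in every comparison. Its standard errors were the widest of the 7 tested genes, and the 95% interval of Nemo KO minus wildtype ran from -0.60 to 1.24 around 0.32, a value that was 0.72 without wildtype replicate 1 and -0.08 without wildtype replicate 2. Sp5, a zinc-finger factor, lay between 3.63 and 4.26 on all 11 arrays, below the level at which genes were tested.

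Lect2 encodes a protein secreted by hepatocytes that was found as a leukocyte chemotactic factor. Log2 signals of Lect2 were 11.96, 11.87 and 12.47 in double KO, 11.79, 11.79 and 11.11 in Nemo KO, 11.32, 12.12 and 12.17 in Cxcr6 KO, and 11.34 and 10.96 in wildtype. All 3 double KO arrays lay above all 3 Nemo KO arrays, whereas Cxcr6 KO replicate 1 lay within the wildtype range. Double KO was 1.45-fold higher than Nemo KO (log2 difference 0.53 ± 0.28 SE, 95% interval -0.10 to 1.17, limma adjusted p = 0.367), a difference of 0.35 without double KO replicate 3 and 0.31 without Nemo KO replicate 3. Cxcr6 KO was 1.64-fold higher than wildtype (0.72 ± 0.32 SE, limma adjusted p = 0.45).

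**Figure D1:**
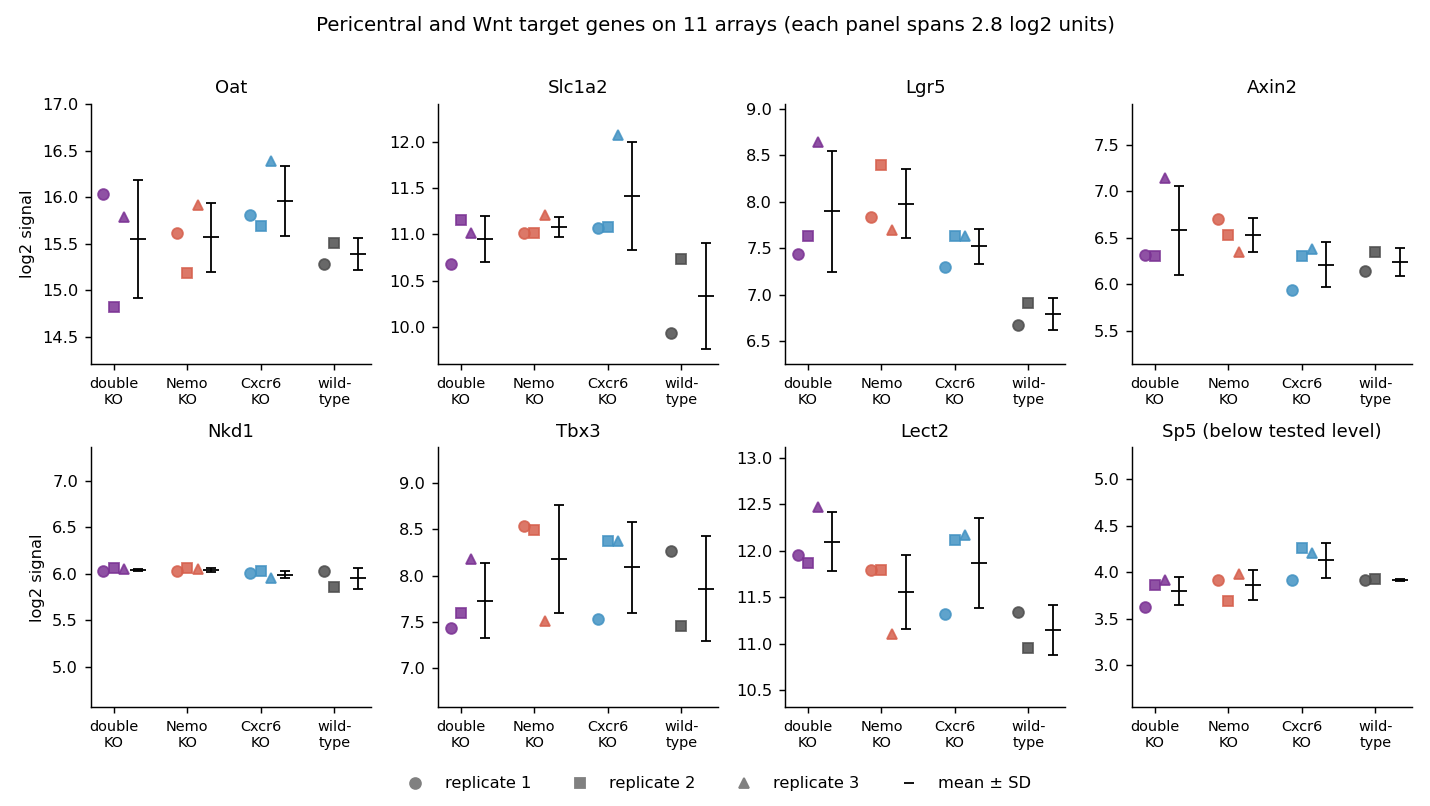
Log2 signal of the 8 genes with a row of their own, by group; points are arrays, marked by replicate, and bars give the mean ± SD (n = 3 per knockout group, n = 2 in wildtype). Lgr5 lies between 7.30 and 8.64 in the knockout groups, above the wildtype values of 6.67 and 6.91, whereas Nkd1 stays between 5.86 and 6.06 on all arrays.

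The effect of deleting Nemo was read within each line. With limma, 0 of the 7 tested genes passed 5% in Nemo KO against wildtype, where 0.158% of all 18337 genes tested passed, and 0 of 7 passed in double KO against Cxcr6 KO, where 7.41% passed. At an unadjusted p under 0.05 the counts were 2 of 7 in Nemo KO against wildtype (Slc1a2 and Lgr5, against 24.6% of all genes) and 0 of 7 in double KO against Cxcr6 KO (against 29.1%). All 7 genes had a positive difference in Nemo KO minus wildtype, where 44.6% of all genes did. The median was 0.32 on the log2 scale beside -0.04 over all genes. All 7 stayed positive with arrays centred on their medians or quantile normalized. With 1 array left out, the lowest values were -0.08 for Tbx3, 0.001 for Oat and 0.018 for Nkd1. The remaining genes stayed at 0.18 or above. In double KO minus Cxcr6 KO, 4 were positive and 3 negative (Oat, Slc1a2 and Tbx3), with a median of 0.05 beside -0.06 over all genes. Groups did not overlap for 2 genes in Nemo KO against wildtype (Slc1a2 and Lgr5) and for 1 in double KO against Cxcr6 KO (Nkd1), against 36% and 37.7% of all genes tested, so these counts were no higher than the background. The 95% intervals of the 7 genes reached from -0.65 to 1.95 in Nemo KO minus wildtype and from -1.18 to 1.07 in double KO minus Cxcr6 KO.

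The effect of Cxcr6 status was read with and without Nemo. In double KO against Nemo KO 0 of 7 genes passed 5% (0.594% of all genes did), 0 of 7 had an unadjusted p under 0.05 (16.8%), and the groups did not overlap for 1 gene, Lect2 (22.8%). The median difference of the 7 genes was -0.02 beside 0.04 over all genes. Centring the arrays moved the median of all genes to 0.158 and turned Oat and Lgr5 from negative to positive (0.10 and 0.04 on the log2 scale), so that no direction is given for them here. In Cxcr6 KO against wildtype 0 of 7 passed (0.256%), 2 of 7 had an unadjusted p under 0.05, Slc1a2 and Lect2 (11.1%), and the groups did not overlap for 3 genes, Oat, Slc1a2 and Lgr5 (23.9%). There the median was 0.57 beside 0.01 over all genes, and Axin2 was the 1 gene with a negative value, -0.04 ± 0.25 (SE), which was 0.02 after quantile normalization. Both this comparison and Nemo KO against wildtype use the same 2 wildtype arrays.

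The interaction, that is, double KO minus Cxcr6 KO less the difference of Nemo KO and wildtype, was negative for 6 of the 7 genes, with a median of -0.59 beside 0.03 over all genes; with arrays centred the median of all genes was 0.175 and Nkd1 turned positive (0.09). It passed 5% for 0 of 7 (0% of all genes) and had an unadjusted p under 0.05 for 1 of 7 (11.8%). That gene was Slc1a2, with -1.20 ± 0.44 (SE, log2, 95% interval -2.19 to -0.20, limma adjusted p = 0.356), or -0.80 without wildtype replicate 1. Axin2 was the gene with a positive value, 0.09 ± 0.34 (SE), which was -0.19 without double KO replicate 3 and -0.04 without Cxcr6 KO replicate 1. A p that misses the threshold does not show that the Nemo effects were alike in the 2 lines.

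**Figure D2:**
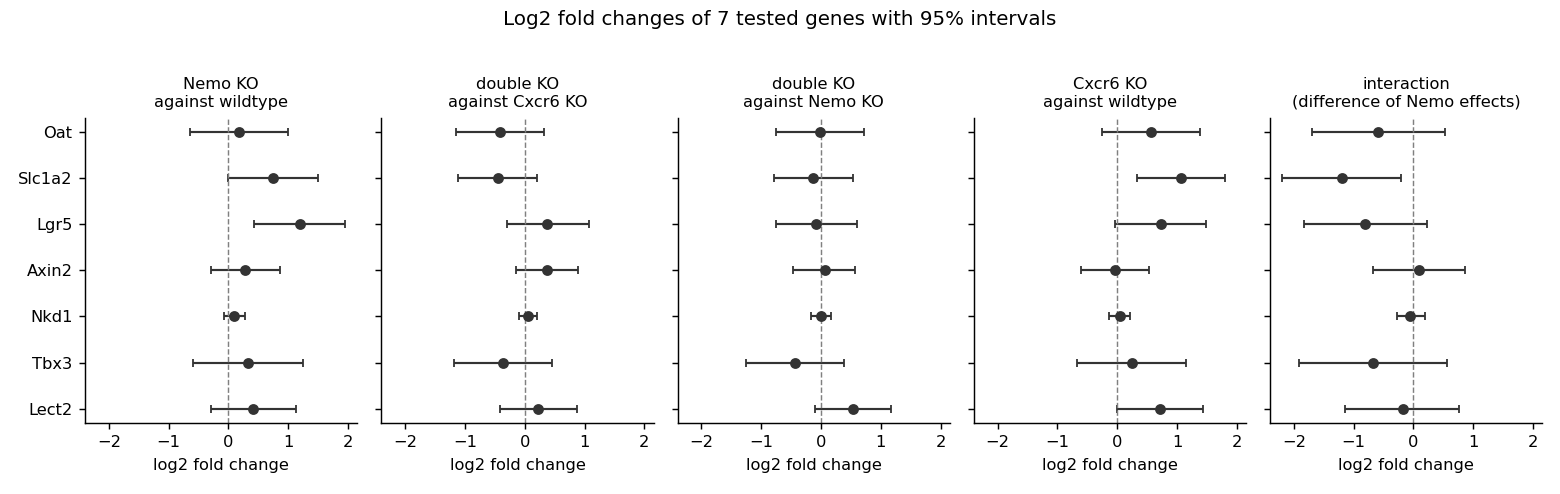
Log2 fold changes of the 7 tested genes in the 5 comparisons, with 95% intervals from the limma fit; positive values are higher in the group named first. The interval of Lgr5 in Nemo KO against wildtype (0.42 to 1.95) and of Slc1a2 in Cxcr6 KO against wildtype (0.33 to 1.81) lie above 0 before adjustment, and none of the 35 values passed 5% after it.

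The genes did not move as a block across the 11 arrays, although wildtype replicate 2 lay below the mean over 11 arrays for each of the 7. Axin2 and Lgr5 correlated at 0.77 and, as deviations from the group means, at 0.85. Tbx3 and Lect2 correlated at 0.51 and at 0.96 as deviations, while Oat had values between -0.45 and 0.27 with each of the other 6 genes as deviations. These are descriptions over 11 arrays that share the scaling of the array: as deviations, 13 of 11813 genes had a higher correlation with Lect2 than Tbx3 had, and 273 a higher one with Axin2 than Lgr5 had. Double KO replicate 3 was the highest of its group for 4 of the 7 genes and the lowest for 0, and Cxcr6 KO replicate 1 was the lowest of its group for 5. Over all named genes tested apart from predicted models (11814), the values most like those of Lect2 over the 11 arrays belonged to Afg3l1 (Pearson correlation 0.953), Tbcd, Slc48a1, Cst3 and Gps1, and those most like Axin2 to Tgif1 (0.952), Krt18, Tpm1, Mad2l2 and Sbno2. As deviations from the group means the nearest were Usp22 (0.983), Nup160, Copg1, Coasy and Kdm5c for Lect2, and Gnai2 (0.987), Prkx, Tmem120a, Septin10 and Mad2l2 for Axin2.

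Genes upstream of the listed targets were read from lists of the Wnt pathway. Of the Wnt ligands and R-spondins 5 of 10 reached the tested level, and 0 of 5 passed 5% by limma in any of the 4 comparisons. At an unadjusted p under 0.05 there were 2 of 5 in Nemo KO against wildtype (24.6% of all genes) and 1 in double KO against Cxcr6 KO (29.1%). There was also 1 in double KO against Nemo KO (16.8%) and 1 in Cxcr6 KO against wildtype (11.1%). Rspo3, the R-spondin of central vein endothelium, had log2 signals of 5.14, 5.60 and 5.41 in double KO, 5.10, 5.04 and 5.18 in Nemo KO, 5.04, 4.97 and 4.82 in Cxcr6 KO, and 4.76 and 4.73 in wildtype. It reached the tested level through double KO alone, the group in which it was highest, so its higher values there are given as a description and support nothing. Of the 11 receptors and co-receptors 1 rose in double KO against Cxcr6 KO and 0 fell, near the share over all genes (7.41%), and 0 passed in the other 3 comparisons (at most 1 at an unadjusted p under 0.05, beside 11.1% to 24.6% of all genes). That gene was Lrp5, the co-receptor of Frizzled, with 10.81, 10.66 and 11.34 in double KO and 9.28, 9.65 and 9.79 in Cxcr6 KO (1.36 ± 0.27 SE, 2.57-fold, limma adjusted p = 0.0238). Leaving out an array kept the Lrp5 call in 7 of 11 cases, and it was lost without double KO replicate 3 or any 1 of the 3 Cxcr6 KO arrays (highest adjusted p 0.0817). In Nemo KO against wildtype Lrp5 differed by 0.57 ± 0.30 (SE, adjusted p = 0.285).

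Inside the cell, 0 of the 13 tested genes of beta-catenin, the destruction complex and the Tcf factors passed 5% by limma in any of the 4 comparisons, with medians of 0.04 in double KO minus Cxcr6 KO and -0.16 in Nemo KO minus wildtype. At an unadjusted p under 0.05 there were 5 of 13 in Nemo KO against wildtype (24.6% of all genes) and 1 in double KO against Cxcr6 KO (29.1%). There were 2 in double KO against Nemo KO (16.8%) and 1 in Cxcr6 KO against wildtype (11.1%). Of the 9 tested feedback genes and inhibitors 0 passed in any of the 4 comparisons. At the unadjusted p there were 2 of 9 in Nemo KO against wildtype (24.6% of all genes) and 2 in double KO against Cxcr6 KO (29.1%). There was 1 in double KO against Nemo KO (16.8%), and there were 3 in Cxcr6 KO against wildtype (11.1%). The nearest were Dkk1, which blocks the Lrp co-receptors, at -0.41 ± 0.11 (SE, adjusted p = 0.0554), and Sfrp5, a secreted Wnt binder, at -0.36 ± 0.11 (adjusted p = 0.0661), both in double KO minus Cxcr6 KO by limma. Dkk1 lay near the tested level of 5.27, with means of 5.08 in double KO and 5.49 in Cxcr6 KO, its highest group. Its difference is therefore given as a description. Znrf3, the ligase that removes Frizzled, differed by 0.13 ± 0.19 (SE) in double KO minus Cxcr6 KO and by 0.28 ± 0.21 in Nemo KO minus wildtype. Notum, which inactivates Wnt proteins, differed by 0.24 ± 0.22 and 0.42 ± 0.25 (SE) in the same comparisons.

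Other zonation genes were read in the same way. Of 18 tested pericentral genes from outside the list of 10, 0 passed 5% by limma in the comparisons other than double KO against Cxcr6 KO. At an unadjusted p under 0.05 there were 5 of 18 in Nemo KO against wildtype (24.6% of all genes). There was 1 in double KO against Nemo KO (16.8%), and there were 6 in Cxcr6 KO against wildtype (11.1%). In double KO against Cxcr6 KO 2 rose and 0 fell (7.41% of all genes passed), with a median log2 difference of -0.27. At the unadjusted p there were 8 of 18 there (29.1% of all genes). The counts moved with the fit, as did those of all genes: 2 rose and 5 fell with those 2 groups alone (15.1% of all genes passed), 3 rose and 7 fell with array weights (25.6%), 3 rose and 4 fell without either wildtype array (12.8%), and 0 passed without any 1 Cxcr6 KO array (0.633% to 2.87%). Slc13a3, a carboxylate transporter, had log2 signals of 8.76, 8.66 and 9.99 in double KO, 9.17, 9.38 and 8.92 in Nemo KO, 6.96, 7.29 and 7.59 in Cxcr6 KO, and 6.88 and 7.45 in wildtype. It thus lay higher on all 6 arrays of mice lacking Nemo than on the other 5. It rose by 1.86 ± 0.34 (SE, limma adjusted p = 0.0209) in double KO against Cxcr6 KO, and differed by 1.99 ± 0.38 (adjusted p = 0.0651) in Nemo KO minus wildtype. Without any 1 of the Cxcr6 KO arrays the Slc13a3 call was lost (adjusted p up to 0.0732). Tuba8, an alpha-tubulin, rose by 1.35 ± 0.34 (SE, limma adjusted p = 0.0459), a call that was lost without double KO replicate 3, Nemo KO replicate 1 or 3, or any 1 Cxcr6 KO array (adjusted p up to 0.144) and after quantile normalization (0.0549). Of 17 tested periportal genes 1 rose there (7.41% of all genes passed), Hsd17b13, a lipid droplet enzyme, by 0.68 ± 0.10 (SE, limma adjusted p = 0.0113), with an adjusted p of 0.0505 without Cxcr6 KO replicate 3. Hsd17b13 had log2 signals of 17.80, 17.81 and 17.98 in double KO and 17.20, 17.17 and 17.18 in Cxcr6 KO, and no array of the other groups lay below 17.70. Of 12 tested genes of glutamine, proline and ammonia handling 0 passed 5% by limma in any of the 4 comparisons. At the unadjusted p there were 2 of 12 in Nemo KO against wildtype (24.6% of all genes) and 3 in double KO against Cxcr6 KO (29.1%). There were 2 in double KO against Nemo KO (16.8%) and 1 in Cxcr6 KO against wildtype (11.1%).

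**Figure D3:**
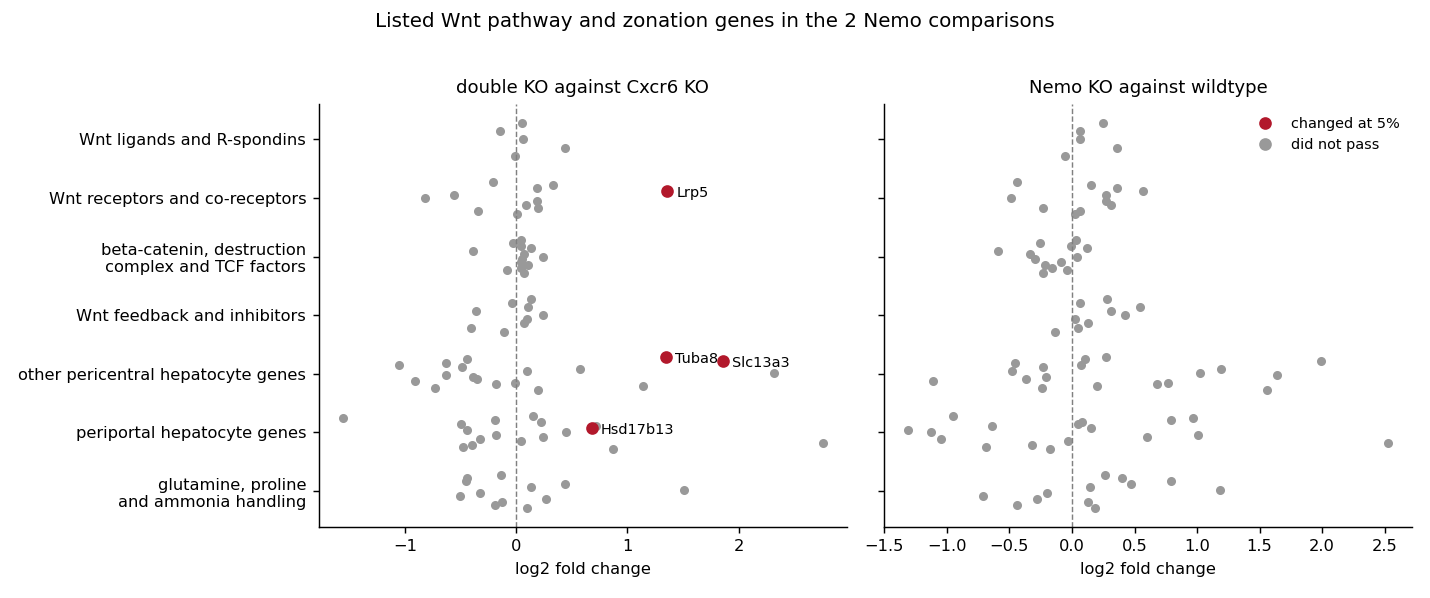
Log2 fold changes of the tested genes of 7 lists in double KO against Cxcr6 KO (left) and Nemo KO against wildtype (right), on separate horizontal scales; each point is a gene, and red points passed 5% after adjustment over all genes. Lrp5, Slc13a3, Tuba8 and Hsd17b13 passed on the left and none on the right.

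Markers of other liver cells differed mainly between double KO and Cxcr6 KO. In Nemo KO against wildtype 0 endothelial, macrophage, stellate, cholangiocyte or proliferation markers passed 5% by limma (0.158% of all genes did). The same held in Cxcr6 KO against wildtype (0.256% of all genes). In double KO against Cxcr6 KO 12 of 16 endothelial markers rose, as did 8 of 9 tested markers of stellate cells and fibroblasts (of 11 listed), 5 of 12 macrophage markers, 2 of 6 tested cholangiocyte markers (of 10 listed) and 1 of 9 tested proliferation markers (Ect2), and 0 of these fell, beside 7.41% of all genes that passed in either direction. Without double KO replicate 3 the endothelial, stellate and macrophage counts were 8, 4 and 0, and without Cxcr6 KO replicate 3 they were 7, 4 and 0. Without double KO replicate 2, Cxcr6 KO replicate 1 or Cxcr6 KO replicate 2 the endothelial count was 11 or 12, the stellate count 4 and the macrophage count 1 or 2, and without Nemo KO replicate 1 the macrophage count was 2. The cholangiocyte count was 0 without double KO replicate 3 or Cxcr6 KO replicate 3, and the proliferation count was between 0 and 5 with 1 array left out. The mean log2 signal of the endothelial list lay between 7.76 and 8.52 in double KO and between 7.08 and 7.49 in Nemo KO, against 6.28 to 6.83 in Cxcr6 KO and 6.73 to 6.83 in wildtype. The stellate list lay between 7.20 and 8.21 in double KO and between 6.91 and 7.11 in Nemo KO, against 5.95 to 6.16 in Cxcr6 KO and 6.15 to 6.62 in wildtype. The macrophage list lay between 8.05 and 9.0 in double KO and between 7.23 and 8.71 in Nemo KO, against 6.91 to 7.19 in Cxcr6 KO and 6.57 to 7.53 in wildtype. Double KO lay above Cxcr6 KO on all arrays in these 3 lists. In double KO against Nemo KO, 1 of the 16 endothelial markers rose (Tek, by 1.10 ± 0.18 SE, limma adjusted p = 0.0447), a call that held only without double KO replicate 1 or either wildtype array among the 11 cases with an array left out. Of 9 tested hepatocyte markers 1 fell, Cebpa, in double KO against Cxcr6 KO (-1.57 ± 0.39 SE, limma adjusted p = 0.0453, held only without Nemo KO replicate 2 or either wildtype array among the same 11 cases), and the mean of that list stayed between 17.33 and 17.69 on all 11 arrays. The hepatocyte mean includes markers near the highest deposited value (19.93), such as Alb at 19.82 to 19.93. Hnf4a ranged from 12.24 to 13.65 and Cebpa from 10.34 to 12.72, so a steady mean does not show that each marker was steady. Of the lymphocyte markers 2 of 9 with a row of their own reached the tested level, and neither passed 5%. The part of these markers in the values of Lrp5, Rspo3 and the listed pericentral genes was not tested.

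**Figure D4:**
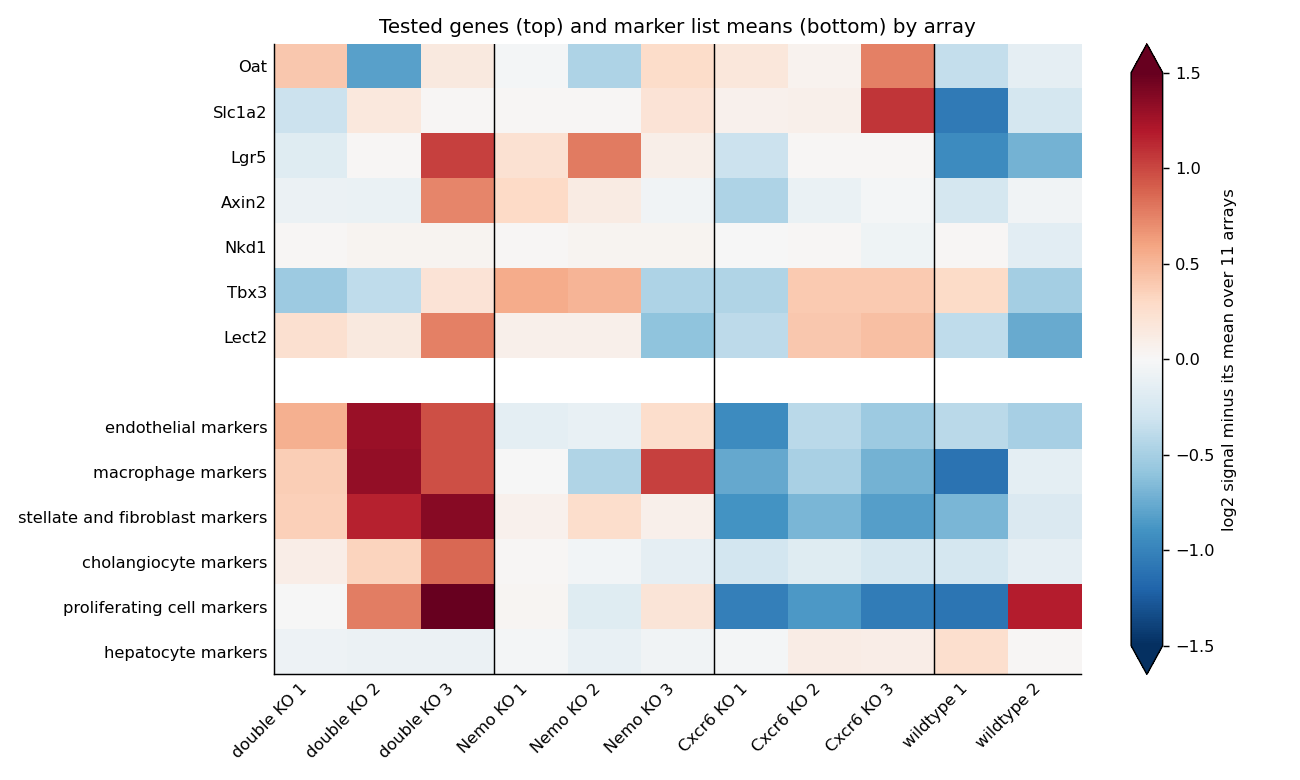
Deviation of each array from the mean over 11 arrays (log2, colour scale cut at 1.5) for the 7 tested genes and for the means of 6 marker lists. Double KO arrays are high for endothelial, macrophage and stellate markers, and Nemo KO replicate 3 is also high for macrophage markers (mean 8.71). The 7 genes are not all high on every double KO array. Double KO replicate 3 lies above the mean over 11 arrays for each of the 7, and wildtype replicate 2 lies below it for each.

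The 2 rows that Glul and Rhbg share with another gene were read in a fit over all 35554 rows above the tested level, chosen after the data were seen, in which 0.0675% of rows passed 5% in Nemo KO against wildtype, 4.76% in double KO against Cxcr6 KO, 0.16% in double KO against Nemo KO, 0.211% in Cxcr6 KO against wildtype and 0% in the interaction. Glul encodes glutamine synthetase and Rhbg an ammonium transporter, but signals of these rows cannot be assigned to either of their genes. The row of Glul and Mir8114 had log2 signals of 12.60, 12.58 and 13.74 in double KO, 14.01, 12.76 and 13.61 in Nemo KO, 12.30, 13.31 and 13.75 in Cxcr6 KO, and 12.42 and 11.46 in wildtype. Nemo KO lay above wildtype on all arrays (these groups did not overlap for 36% of all genes tested), and the other pairs of groups within the 4 comparisons overlapped. Nemo KO minus wildtype was 1.52 ± 0.55 (SE, limma adjusted p = 0.19), and double KO minus Cxcr6 KO was -0.15 ± 0.49 (adjusted p = 0.876).

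The row of Rhbg and Tsacc had log2 signals of 7.54, 7.22 and 7.38 in double KO, 7.13, 7.11 and 6.94 in Nemo KO, 6.55, 6.76 and 6.95 in Cxcr6 KO, and 6.47 and 6.83 in wildtype. The double KO arrays were the 3 highest of the 11, and both groups of mice lacking Nemo lay above wildtype. Of all genes tested, 36% did not overlap in Nemo KO against wildtype and 37.7% in double KO against Cxcr6 KO. The row rose by 0.63 ± 0.14 (SE, 95% interval 0.31 to 0.95, limma adjusted p = 0.0434) in double KO against Cxcr6 KO, and Nemo KO minus wildtype was 0.41 ± 0.16 (adjusted p = 0.215). The call was narrow: with 1 array left out it held in 3 of 11 cases (without Nemo KO replicate 2 or either wildtype array), with adjusted p up to 0.12 and log2 differences of 0.53 to 0.73, and it missed 5% with quantile normalization (adjusted p = 0.0701). A second row of Slc1a2, shared with Gm13872, lay between 5.01 and 5.43 on the 11 arrays, near the array medians.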

How the data were processed

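RNA of hepatocytes from 4 genotypes was measured on 11 arrays, which carry no read depth; the number of arrays limits the precision. Per the labels' protocols, labelled cDNA was made from 300 ng of total RNA with an Affymetrix whole-transcript kit. RMA, Affymetrix Expression Console and Transcriptome Analysis Console are named, without versions, per the submitters' processing notes. The deposited values are log2 signals in 65956 rows, with column medians of 5.19 to 5.38; the sources used here give no genome build for the rows. The authors' scaling was kept.

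Gene symbols came from the platform annotation (30604 rows with 1 symbol, 2146 with several, 33206 with none), updated through RefSeq (22818 rows matched, 827 symbols changed). Rows with several symbols named no gene. Each of 30142 genes was read on its row with the highest mean (355 had more than 1), and 18337 genes whose highest group mean reached the median of row means, 5.27, were tested.

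All 4 groups entered a single fit (limma 3.58.1 under R 4.3.3, functions lmFit and eBayes, 7 residual degrees of freedom, prior 2.13), two-sided, with Benjamini-Hochberg adjustment over all genes tested and a threshold of 5%. The interaction is double KO minus Cxcr6 KO, less Nemo KO minus wildtype. Group values are means ± SD and errors of differences are SE. The 10 genes and all gene lists were chosen with earlier results of these data known. Named genes were all 10, up to 4 genes per list with the smallest p, every listed gene past 5%, the 5 genes most like Lect2 and Axin2 in pattern (Glul, also planned, has no row of its own), and Mki67, Ikbkg, Cxcr6 and Ly6d as checks. The fit was tested on simulated data. Alternatives were 2 scalings, 2 filters, the variance model, array weights, the groups fitted, rows per gene, the replicate number as a block, and each array left out; a fit over all rows was added after the data were seen. No pairing was used, since the labels do not tie equal replicate numbers of different groups together. Deviations of same-numbered arrays correlated between -0.27 and 0.28 over 15 pairs, and those of other pairs between -0.42 and 0.29. With 2 or 3 arrays a group these values cannot exclude pairing. Figures were drawn with matplotlib 3.10.9.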

Additional observations from a re-analysis of the deposited data

Results flagged for a closer look

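Rows outside the tests of named genes carried signal above wildtype on every array of a group lacking Nemo. Such separation is common: in Nemo KO against wildtype, 36% of all genes tested did not overlap in either direction. The share for double KO against wildtype was not computed. The row shared by Glul and Mir8114 averaged 12.97 on the log2 scale in double KO and 13.46 in Nemo KO, against 13.12 in Cxcr6 KO and 11.94 in wildtype. Its mean was thus higher in Cxcr6 KO, with Nemo intact, than in double KO. The row shared by Rhbg and Tsacc averaged 7.38 in double KO and 7.06 in Nemo KO, against 6.75 in Cxcr6 KO and 6.65 in wildtype. The second row of Slc1a2, shared with Gm13872, averaged 5.34 in Nemo KO against 5.27 in wildtype, a difference of 0.07 ± 0.11 (SE, limma adjusted p = 0.779). Its lowest Nemo KO value was 5.3001 and its highest wildtype value 5.2949. Which of the paired genes gave these signals was not tested.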

How the results depend on the processing

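The count of tested genes of the list past 5% was 0 in all 5 comparisons under each of the 21 alternatives in which it could be computed, 11 of them leaving out 1 array; fitting only the groups compared was not possible for the interaction. Over 723 alternative values of the 35 log2 differences, 0 passed 5%, and the lowest adjusted p was 0.0705, for Lgr5 in Nemo KO against wildtype with the stricter filter (0.0705 to 0.319 over its alternatives, log2 difference 0.98 to 1.33 with 1 array left out). The sign was kept throughout for 22 of the 35 differences and changed at least once for 13, in 31 values in all. With the replicate number as a block the count of listed genes past 5% was 0 in each comparison; over all genes the block moved the count from 29 to 0 in Nemo KO against wildtype, from 1358 to 1507 in double KO against Cxcr6 KO, from 109 to 61 in double KO against Nemo KO and from 47 to 24 in Cxcr6 KO against wildtype, and 6 of 11 arrays correlated best with an array of their own number. Over all genes the count also turned on single arrays: in Nemo KO against wildtype it was 2369 without wildtype replicate 2, 184 without wildtype replicate 1, 1023 without Nemo KO replicate 3 and 0 without Cxcr6 KO replicate 2 or 3, and in double KO against Cxcr6 KO it ran from 116 to 2352. With arrays centred, Nemo KO against wildtype had 1319 genes past 5% (89 higher, 1230 lower, against 9 and 20 as deposited), and double KO against Cxcr6 KO had 657 higher and 462 lower (631 and 727 as deposited). In double KO against Nemo KO the higher and lower counts were 67 and 42 as deposited, 174 and 27 with arrays centred and 66 and 22 after quantile normalization, and in Cxcr6 KO against wildtype they were 32 and 15 as deposited and 36 and 9 after quantile normalization. With only the groups compared in the fit the counts were 0, 2766, 11 and 0, and with array weights 0, 4692, 971 and 16, for Nemo KO against wildtype, double KO against Cxcr6 KO, double KO against Nemo KO and Cxcr6 KO against wildtype. In double KO against Cxcr6 KO the row of Rhbg and Tsacc had an adjusted p of 0.0635 with the replicate block, and Tuba8 one of 0.0578. The causes were not tested. With 2 or 3 arrays a group, differences near 1 log2 unit in a single gene could be missed.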
